A study of Mus musculus with 6 samples.

Results

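Expression of 6 genes of the macrophage, platelet and myeloid precursor lineages was followed in RNA from mouse embryos with and without lnc956, a long noncoding RNA. The genes were taken by symbol: Cd68 and Csf1r of macrophages, Pf4, Gp9 and Itga2b of platelets and their precursors, and Mpo of myeloid precursors. They are 6 of the 7101 genes in the deposited table. The 6 libraries carry the labels embryo, E12.5 and strain C57BL/6N, and 3 are labelled wild type and 3 lnc956 knockout. No treatment is given for either genotype, and the labels do not say how the knockout allele was made or whether a library holds 1 embryo or several. Nor do they say whether replicates are independent animals, so each p-value reflects the spread between the samples as given, which may be technical. Since lnc956 itself was not analysed here, the genotypes rest on the labels.

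Macrophages are tissue phagocytes that arise in the embryo from yolk sac progenitors and later from fetal liver monocytes, and most of them depend on the CSF1 receptor, the product of Csf1r, for survival. Cd68 encodes a heavily glycosylated protein of their lysosomes. Platelets are shed by megakaryocytes, which load their granules with the chemokine platelet factor 4 (Pf4) and place on their surface the von Willebrand factor receptor, of which Gp9 encodes a subunit, and the fibrinogen receptor, whose alpha chain is encoded by Itga2b. Mpo encodes myeloperoxidase, an enzyme of the first granules formed in granulocyte and monocyte precursors. In mid-gestation these precursors lie mainly in the fetal liver, while the pregnant uterus and placenta also hold maternal macrophages and granulocytes.

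The values are FPKM, fragment counts divided by transcript length and by the library's mapped fragments, and a higher value means a larger share of a library's RNA. In bulk RNA, fewer cells of a type and less RNA per cell cannot be told apart. The table consists almost wholly of genes that differ between the genotypes: limma, a linear model fitted to log2(FPKM + 1) of 6487 genes, called 96.4% of them at a Benjamini-Hochberg adjusted p under 0.05, with 47.2% of the genes tested called higher in knockout and 49.2% called lower. A call for a member, in either direction, is therefore close to the background. The direction, size and pattern over libraries of the members are given below as a description. Tissue markers did not match the label in the knockout libraries. The 10 placenta and decidua markers in the table, of 12 listed, summed to between 2.28 and 5.39 FPKM in wild-type and between 21427 and 44377 FPKM in knockout libraries. The 8 neuron markers in the table, of 12, summed to between 771 and 813 FPKM in wild type and between 5.96 and 21.3 FPKM in knockout, and Nefl was at 0 in knockout replicate 1 and Elavl3 in knockout replicate 2, as were Rhox6 of the placental list in wild-type replicate 1 and the granzyme gene Gzme in wild-type replicate 2. The 10 muscle markers in the table, of 12, summed to between 550 and 799 FPKM against 11.3 to 15.03 FPKM. The 10 granzyme and natural killer cell genes in the table, of 12, summed to between 4.05 and 6.5 FPKM in wild type and between 7593 and 18962 FPKM in knockout. All results below are from these libraries, and the part of tissue makeup in them was not tested.

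The macrophage members were high in every knockout library and low in every wild-type library. Across replicates 1 to 3, Cd68 stood at 3.94, 3.73 and 3.19 FPKM in wild type and at 157, 311 and 183 FPKM in knockout. Its mean rose from 3.62 ± 0.387 FPKM to 217 ± 82.5 FPKM (mean ± SD, n = 3 in each group throughout), a 59.9-fold difference between means. The groups did not overlap, which was so for 95.6% of the genes in the table (47.1% with knockout higher and 48.5% with knockout lower). Its log2 change, taken on the FPKM + 1 scale, was 5.50 (SE 0.26, limma adjusted p = 1.37e-06). In the knockout libraries 181 genes of the table had a higher mean than Cd68, against 4407 in the wild-type libraries.

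Csf1r stood at 5.83, 3.96 and 3.66 FPKM in the wild-type libraries and at 215, 112 and 105 FPKM in the knockout libraries, each in replicate order. The lowest knockout value was many times the highest wild-type value. The mean rose from 4.48 ± 1.18 to 144 ± 61.6 FPKM, which is 32.2-fold, with a log2 change of 4.67 (SE 0.30, limma adjusted p = 5.09e-06). In GENCODE M21 on GRCm38, Csf1r spans 61100598 to 61132149 of chromosome 18 on the plus strand. Cd68 spans 69664213 to 69666153 of chromosome 11 on the minus strand. These positions cover whole protein-coding genes and belong to that annotation, since the deposited values carry no coordinates.

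**Figure D1:**
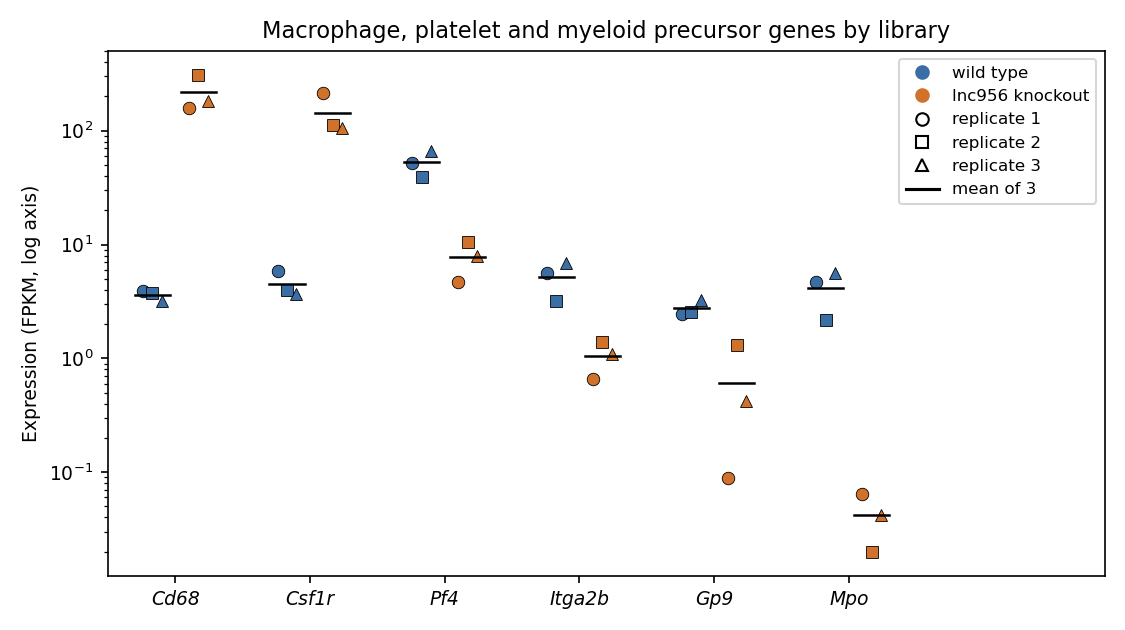
FPKM of the 6 members (log axis) in each wild-type (blue) and knockout (orange) library; marker shape gives the replicate and the bar the mean of 3. Cd68 and Csf1r lie above 100 FPKM in every knockout library, whereas each knockout value of Pf4, Itga2b, Gp9 and Mpo lies under all wild-type values of that gene.

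Within the knockout group the macrophage members did not move together. Cd68 was highest in replicate 2, at 1.43 times its knockout mean, and lowest in replicate 1, at 0.723 times. Csf1r was highest in replicate 1, at 1.49 times its knockout mean, and stood at 0.776 and 0.731 times that mean in replicates 2 and 3. The ratio of Cd68 to Csf1r within a library was 0.728, 2.78 and 1.74 in knockout replicates 1 to 3, against 0.676 to 0.943 in wild type, so the groups overlapped for this ratio. Among the 25 macrophage and monocyte genes of the table with a higher mean in knockout, 24 were highest in knockout replicate 2 and Csf1r was the exception. Of all 3643 genes with a higher mean in knockout, 50.4% were highest in that replicate and 29.5% in replicate 1.

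**Figure D2:**
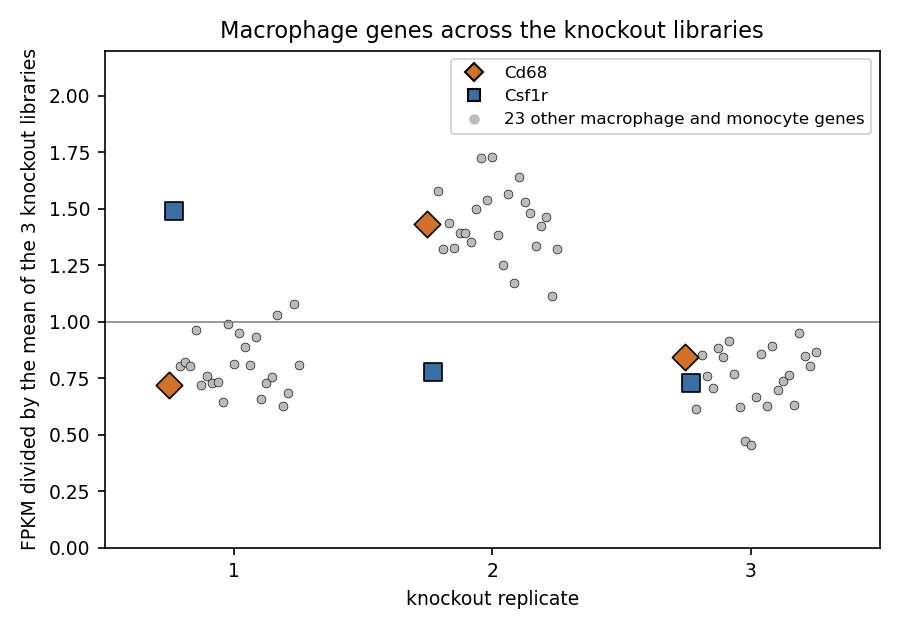
FPKM in each knockout library divided by the mean of the 3 knockout libraries, for the 25 macrophage and monocyte genes of the table with a higher mean in knockout. Cd68 (orange diamond) sits with the 23 other genes (grey), which peak in replicate 2, and Csf1r (blue square) is at 1.49 in replicate 1 and below 1 in the other libraries.

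Some genes of placental giant cells shared the high values in knockout replicate 1. In the mouse, Csf1r transcripts are also known from trophoblast and decidual cells. Of the 10 placenta and decidua markers in the table, 7 were highest in knockout replicate 1, 2 in replicate 3 and 1 in replicate 2. Prl3d1, which encodes placental lactogen I of trophoblast giant cells, stood at 8089, 225 and 338 FPKM in knockout replicates 1 to 3, and the proliferin gene Prl2c2 at 14208, 2135 and 1579 FPKM. Prl3b1 and Ctsj of the same list differed less between these libraries. Prl3b1 stood at 6901, 6251 and 5160 FPKM in replicate order, and Ctsj at 2044, 2499 and 1499 FPKM, highest in replicate 2. The part of placental genes in the Csf1r values was not tested.

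Genes for the ligand of the CSF1 receptor and for related receptors were also higher in knockout, by less than Csf1r. Of the 9 genes on this list, 5 besides Csf1r were in the table and 4 of these were tested; 3 rose, none fell and Csf2rb missed the threshold. Csf1, the ligand, stood at 3.76, 3.54 and 3.16 FPKM in wild type and at 15.3, 9.61 and 4.93 FPKM in knockout, each in replicate order. Like its receptor it was highest in knockout replicate 1, and its log2 change was 1.17 (SE 0.35, limma adjusted p = 0.0124). Csf2ra, the alpha chain of the GM-CSF receptor, stood at 5.70, 5.23 and 5.19 FPKM in wild type and at 26.4, 14.1 and 14.1 FPKM in knockout, again highest in replicate 1. Csf3r, the G-CSF receptor gene of granulocytes, rose from 0.344 ± 0.0765 to 2.16 ± 1.07 FPKM and reached 1 FPKM in no wild-type library. Csf2rb, the shared beta chain, averaged 1.79 ± 0.278 and 4.18 ± 2.75 FPKM with a log2 change of 0.78 (limma adjusted p = 0.052). It passed the threshold under 7 of the 13 other settings that could be run for it, with adjusted p from 0.00396 to 0.0481, among them the omission of any 1 knockout library. The median log2 change of these 4 genes was 1.18, beside 0.38 over all genes tested.

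Most other macrophage genes rose as well, over a wide range of sizes. Of the 37 macrophage and monocyte genes listed, 25 besides Cd68 and Csf1r were in the table and 23 of these were tested, of which 19 rose, 2 fell and 2 did not pass. Their median log2 change was 1.58. A gene tested only because 1 genotype reached the filter of 1 FPKM in 3 libraries had to differ, so the counts of each list describe its genes and are no support for a direction. Of the 19 macrophage genes that rose, 9 reached 1 FPKM in no wild-type library and were tested through knockout alone. The weakest of the 19, Lst1 (log2 change 0.68, limma adjusted p = 0.0472), lost its call under 6 of 14 other settings, with adjusted p from 0.0518 to 0.151. On the log2(FPKM + 1) scale Cd68 had the largest increase of the tested genes of the list and Csf1r the third largest, but this order depends on the scale: by the ratio of means Ly6c2, at 105-fold, and Trem2, at 60.9-fold, stood above Cd68. Ly6c2, a surface antigen gene of blood monocytes, was at most 0.406 FPKM in wild type and stood at 23.8, 38.9 and 25.5 FPKM in knockout replicates 1 to 3 (log2 change 4.54, SE 0.22). Irf8, a transcription factor gene of the monocyte and dendritic lineages, rose from 1.52 ± 0.273 to 24.1 ± 3.65 FPKM. Trem2, a lipid receptor gene of tissue macrophages, rose from 2.34 ± 0.845 to 142 ± 59.2 FPKM, a log2 change of 5.38 on the FPKM + 1 scale; it was chosen after its value was seen.

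Not all macrophage genes rose with Cd68. The complement genes C1qa and C1qc, which macrophages transcribe at high level, did not pass: C1qa stood at 10.3, 9.27 and 7.3 FPKM in wild type and at 11.8, 23.1 and 9 FPKM in knockout, and these values overlap. Its log2 change was 0.56 (limma adjusted p = 0.128), and it passed after trimmed-mean rescaling (adjusted p = 0.0251) and without knockout replicate 3 (adjusted p = 0.0344). C1qc had a log2 change of 0.51 (limma adjusted p = 0.111), and passed after trimmed-mean rescaling (0.0141) and without wild-type replicate 1 (0.0494). Cx3cr1, the fractalkine receptor gene of microglia and other resident macrophages, fell from 2.61 ± 0.256 to 0.695 ± 0.228 FPKM, a log2 change of −1.10 (SE 0.13, limma adjusted p = 0.000119), and was tested through wild type alone. The ratio of Cd68 to C1qa lay between 0.384 and 0.437 in wild type and between 13.3 and 20.3 in knockout.

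Genes of leukocytes in general rose with the macrophage members. All 14 tested of the 18 pan-leukocyte genes listed were higher in knockout, with a median log2 change of 2.17, and 13 were without wild-type replicate 2. Of the 14, Ptprc, Cd48 and Dock2 reached 1 FPKM in no wild-type library and were tested through knockout alone. Lcp1, an actin-bundling protein gene, rose from 9.36 ± 0.555 to 61.7 ± 4.84 FPKM, and the surface protein genes Cd52 and Cd53 from 5.08 ± 0.808 to 35.2 ± 3.72 and from 0.858 ± 0.233 to 7.03 ± 1.3 FPKM. Ptprc, the CD45 gene that defines leukocytes, stood at 0.444, 0.299 and 0.518 FPKM in wild type and at 5.93, 11.2 and 6.59 FPKM in knockout. The ratio of Cd68 to Ptprc was nearly the same in the 3 knockout libraries, at 26.4, 27.7 and 27.8, and lower in wild type, at 8.87, 12.4997 and 6.16. Natural killer cell genes, which also belong to leukocytes, were high in the same libraries, and their part in the pan-leukocyte values was not tested.

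The platelet members fell together. Across replicates 1 to 3, Pf4 stood at 52.2, 39.1 and 66.6 FPKM in wild type and at 4.7, 10.5 and 7.9 FPKM in knockout. Every knockout value was well under the lowest wild-type value. The mean fell from 52.6 ± 13.8 to 7.71 ± 2.91 FPKM, to 14.6% of wild type, with a log2 change of −2.65 (SE 0.30, limma adjusted p = 8.36e-05). Pf4 was the most abundant member in wild type, where 502 genes of the table had a higher mean, and 2885 did in knockout.

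Itga2b stood at 5.63, 3.16 and 6.85 FPKM in wild type and at 0.653, 1.38 and 1.09 FPKM in knockout, each in replicate order. Its order over libraries was that of Pf4 within both genotypes: replicate 3 above 1 above 2 in wild type, and replicate 2 above 3 above 1 in knockout. The mean fell from 5.21 ± 1.88 to 1.04 ± 0.367 FPKM, 20.0% of wild type (log2 change −1.57, SE 0.26, limma adjusted p = 0.000697). The ratio of Pf4 to Itga2b was 9.28, 12.4 and 9.72 in wild type and 7.2, 7.61 and 7.26 in knockout. These ratios did not overlap between the genotypes, but they differed far less than either gene's level.

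Gp9 was less even. It stood at 2.44, 2.54 and 3.27 FPKM in wild type, and at 0.0884, 1.3 and 0.418 FPKM in knockout, where the highest value was 14.7 times the lowest. The groups did not overlap, and the order of the knockout libraries was again replicate 2 above 3 above 1. The mean fell from 2.75 ± 0.451 to 0.603 ± 0.628 FPKM, 22.0% of wild type (log2 change −1.29, SE 0.27, limma adjusted p = 0.00217). With quantile normalization the log2 change was −0.74 and no longer passed (adjusted p = 0.0526). Gp9 reached 1 FPKM in all wild-type libraries but in 1 knockout library, and Itga2b in 2 knockout libraries, so both entered the test through wild type.

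The sequences around the starts of the platelet members and of Cd68 are shown because these platelet genes fell together while Cd68 rose. They come from RefSeq on GRCm38.p6 and run 5′ to 3′ on the gene's strand, from 250 bases before the annotated start to 50 bases from it onward. Capitals mark 2 short motifs searched on both strands, GATAA (or TTATC), the core bound by GATA factors such as GATA1 of megakaryocytes and red cells, and GAGGAA (or TTCCTC), a core bound by PU.1, an Ets factor of macrophages and other blood cells. The motifs do not overlap each other in these windows.
Pf4, chr5:90772185-90772484, plus strand: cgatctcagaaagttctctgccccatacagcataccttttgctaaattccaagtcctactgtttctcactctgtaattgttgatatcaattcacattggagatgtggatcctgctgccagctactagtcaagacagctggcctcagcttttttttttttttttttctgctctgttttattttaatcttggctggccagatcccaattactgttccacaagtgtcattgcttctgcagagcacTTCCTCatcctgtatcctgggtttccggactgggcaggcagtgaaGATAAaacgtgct
Gp9, chr6:87777820-87778119, plus strand: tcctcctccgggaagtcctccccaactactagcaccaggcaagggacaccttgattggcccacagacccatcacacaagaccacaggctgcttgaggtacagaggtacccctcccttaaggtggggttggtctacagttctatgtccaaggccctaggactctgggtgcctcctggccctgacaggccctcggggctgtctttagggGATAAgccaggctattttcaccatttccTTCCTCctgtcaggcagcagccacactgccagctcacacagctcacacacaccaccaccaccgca
Itga2b, chr11:102469834-102470133, minus strand: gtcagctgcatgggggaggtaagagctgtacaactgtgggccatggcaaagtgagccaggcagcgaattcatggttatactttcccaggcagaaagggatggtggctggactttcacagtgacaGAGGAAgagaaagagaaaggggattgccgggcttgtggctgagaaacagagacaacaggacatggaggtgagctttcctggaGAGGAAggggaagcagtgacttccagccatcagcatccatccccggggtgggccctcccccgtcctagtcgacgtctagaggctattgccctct
Cd68, chr11:69666121-69666420, minus strand: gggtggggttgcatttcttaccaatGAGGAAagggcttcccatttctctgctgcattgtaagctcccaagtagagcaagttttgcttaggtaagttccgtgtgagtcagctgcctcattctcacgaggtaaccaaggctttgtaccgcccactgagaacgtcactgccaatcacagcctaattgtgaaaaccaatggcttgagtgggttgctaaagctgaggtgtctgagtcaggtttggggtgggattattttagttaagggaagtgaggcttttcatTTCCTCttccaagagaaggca
GATAA occurred once in the Pf4 window and once in the Gp9 window, and not in those of Itga2b and Cd68; 25.4% of the 32851 windows of the same kind hold it. GAGGAA occurred in all 4 windows, once each for Pf4 and Gp9 and at 2 positions each for Itga2b and Cd68, and 28.3% of all windows hold it. In the window of Mpo, which is not printed, GAGGAA occurred at 2 positions and GATAA at 0. The window of Csf1r is not reported here. A match of this length is a description of the letters and not of binding. In GENCODE M21 on GRCm38, Pf4 lies on chromosome 5 from 90772435 to 90773383, Gp9 on chromosome 6 from 87778072 to 87779768 and Itga2b on chromosome 11 from 102453297 to 102470122. Nearly all of the Itga2b window lies within the gene so annotated, so its motif counts hold for the RefSeq start only.

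Other platelet genes divided into a group that fell with the members and a group that rose. Of the 38 platelet and megakaryocyte genes listed, 19 besides the 3 members were in the table and 15 of these were tested; 8 fell, 7 rose and the median log2 change was −0.85. Of the 8 that fell, 6 reached 1 FPKM in no knockout library and were tested through wild type alone. Among the genes too low to be tested, Gp1ba, P2ry1 and P2rx1 had no knockout value that reached the lowest wild-type value, as was so for 48.5% of the table. Gp1ba and Gp5, which encode some of the partners of Gp9 in the von Willebrand factor receptor, averaged 0.818 ± 0.221 and 1.47 ± 0.342 FPKM in wild type and 0.101 ± 0.0727 and 0.171 ± 0.0356 FPKM in knockout. Both were chosen after their values were seen.

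Transcription factor genes of the megakaryocyte and red cell lineages had the smallest p among the genes that fell. Nfe2, a factor needed for platelet release, stood at 17.9, 10.9 and 12.2 FPKM in wild type and at 0.245, 0.253 and 0.629 FPKM in knockout (log2 change −3.40, SE 0.22, limma adjusted p = 4.93e-06). Gata1, the lineage's leading GATA factor, stood at 12.2, 7.75 and 9.73 FPKM in wild type and at 0.09, 0.139 and 0.812 FPKM in knockout (log2 change −3.04, SE 0.25). In both genes the knockout mean was a few percent of wild type, a deeper fall than that of Pf4, Itga2b or Gp9, and knockout replicate 3 was highest instead of replicate 2. Tbxa2r, the thromboxane receptor gene, fell from 1.81 ± 0.374 to 0.148 ± 0.0773 FPKM.

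Itgb3, the beta chain that pairs with the Itga2b product in the fibrinogen receptor, moved the other way. It stood at 5.03, 2.73 and 5.38 FPKM in wild type, close to Itga2b in each library, and at 106, 135 and 107 FPKM in knockout (log2 change 4.48, SE 0.23, limma adjusted p = 2.08e-06). The ratio of Itgb3 to Itga2b, in replicate order, was 0.894, 0.863 and 0.785 in wild type against 162, 97.8 and 98.8 in knockout. Itgb3 also pairs with the alpha v chain in many cell types, among them osteoclasts, endothelium and trophoblast. Itga2, the collagen receptor alpha chain gene of platelets and epithelia, rose from 0.991 ± 0.154 to 9.22 ± 2.39 FPKM, and Rab27b, a secretion GTPase gene, from 0.656 ± 0.327 to 4.45 ± 0.283 FPKM. The other genes of the list that rose were Vwf, Plek, Bin2 and Nbeal2, with log2 changes between 0.49 and 2.12. The call for Nbeal2 was lost when wild-type replicate 2 or knockout replicate 2 or 3 was left out (adjusted p from 0.0549 to 0.0944).

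**Figure D3:**
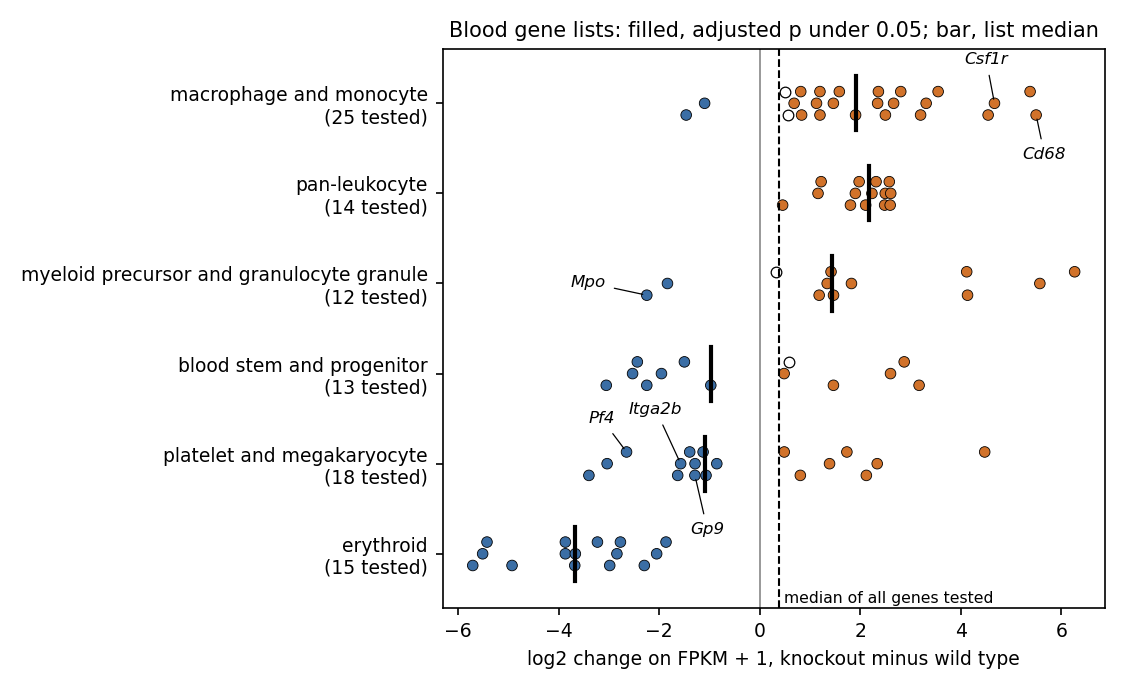
Log2 change (knockout minus wild type, on FPKM + 1) of the tested genes of 6 blood gene lists; filled points passed an adjusted p under 0.05 (orange higher, blue lower), open points did not, and the black bar is the list median. The macrophage median is 1.91 and the platelet median −1.10, members included, beside 0.38 over all genes tested (dashed line); the platelet list spans both directions.

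Mpo was nearly missing from the knockout libraries. It stood at 4.71, 2.17 and 5.67 FPKM in wild type and at 0.0647, 0.02 and 0.0418 FPKM in knockout, each in replicate order. The knockout mean, 0.0422 ± 0.0224 FPKM, was 1.01% of the wild-type mean of 4.18 ± 1.81 FPKM, and 6954 of the 7101 genes had a higher knockout mean. The log2 change was −2.25 (SE 0.26, limma adjusted p = 9.61e-05), which the added 1 FPKM holds far below the difference in FPKM. After allowance for relative depth, the knockout values stood to each other as 3.0 to 1 to 2.0, the spacing of very few fragments, so the knockout level is close to the smallest value these libraries can show. Mpo entered the test through wild type alone. It spans 87793581 to 87804413 of chromosome 11 on the plus strand in GRCm38.

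Other granule and granulocyte genes were mostly higher in knockout. Of the 24 genes listed, 12 besides Mpo were in the table and 11 of these were tested; 9 rose, 1 fell and Mmp9 did not pass, with a median log2 change of 1.47. Of the 9 that rose, Ctsg, Gfi1, Csf3r and Cxcr2 reached 1 FPKM in no wild-type library and were tested through knockout alone, so that their direction was fixed by the filter. The gene that fell was Prg2, the major basic protein gene of eosinophils, which went from 3.18 ± 1.83 to 0.106 ± 0.122 FPKM and was tested through wild type alone. Ctsg, the cathepsin G gene, whose product is stored in the same granules as myeloperoxidase, was 0.312, 0.201 and 0.295 FPKM in wild type and 76.4, 120 and 97.9 FPKM in knockout (log2 change 6.27, SE 0.19, limma adjusted p = 4.98e-07). Mpo and Ctsg therefore changed places: the ratio of Ctsg to Mpo lay between 0.0521 and 0.0927 in wild type and between 1181 and 6020 in knockout, where its denominator is close to the detection limit. In human, cathepsin G is also made by mast cells, and the mast cell protease gene Cma1 stood at 7.38, 4.05 and 6.31 FPKM in knockout and at most 0.17 FPKM in wild type; Hdc was the only other of 9 mast cell and basophil genes in the table, and it rose from 0.718 ± 0.0635 to 2.38 ± 1.35 FPKM. The part of mast cells in the Ctsg values was not tested.

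S100a8, a calcium-binding protein gene of neutrophils and monocytes that is also expressed in decidua, stood at 17.8, 14.1 and 25.7 FPKM in wild type and at 776, 1073 and 978 FPKM in knockout (log2 change 5.57, SE 0.24, limma adjusted p = 9.83e-07). S100a9 of the same list had similar wild-type values, 19.3, 14.7 and 25.9 FPKM, but rose by far less. It stood at 44.4, 100 and 38.5 FPKM in knockout (log2 change 1.47, SE 0.38, limma adjusted p = 0.00663). Cxcr2, the neutrophil chemokine receptor gene, was at most 0.094 FPKM in wild type and stood at 40.8, 10.3 and 11.7 FPKM in knockout, highest in replicate 1 like Csf1r. Mmp9, a gelatinase gene of granulocytes and of invading trophoblast, averaged 1.1 ± 0.477 and 1.65 ± 0.694 FPKM with overlapping groups (log2 change 0.33, limma adjusted p = 0.205); it passed with quantile normalization (0.91, adjusted p = 0.00754).

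Regulators of early blood cells also split. Of 19 stem and progenitor genes listed, 14 were in the table and 13 were tested; 7 fell, 5 rose and Kitl did not pass, with a median log2 change of −0.97. Of these, 5 that fell were tested through wild type alone and 1 that rose through knockout alone. Among those that rose, Cd34 (log2 change 0.49, limma adjusted p = 0.0457) lost its call under 7 of 14 other settings, with adjusted p from 0.068 to 0.448. Tal1 and Lmo2, partners in a transcription complex of blood progenitors, red cells and megakaryocytes, fell from 14.8 ± 3.38 to 0.879 ± 0.0911 FPKM and from 25.2 ± 3.55 to 3.85 ± 0.755 FPKM. Meis1, a homeobox gene of progenitors and megakaryocytes that is also active in many embryonic tissues, fell from 28.5 ± 0.615 to 4.2 ± 1.18 FPKM. Gata2, Kit and Runx1, which act in progenitors and also in mast cells or in tissues outside the blood, rose from 6.22 ± 0.58 to 52.2 ± 7.8, from 7 ± 0.691 to 48.04 ± 8.94 and from 1.87 ± 0.332 to 25.4 ± 7.73 FPKM. Kitl, the ligand of Kit, averaged 2.93 ± 0.58 and 5.57 ± 4.08 FPKM with overlapping groups (log2 change 0.58, limma adjusted p = 0.184).

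Among the wild-type libraries the falling members shared an order with red cell genes. Pf4, Itga2b and Mpo were each lowest in replicate 2, and Gp9 was lowest in replicate 1. Of the 15 erythroid genes in the table, of 16 listed, 13 were lowest in wild-type replicate 2, as were 12 of the 15 platelet genes, members included, with a lower mean in knockout. Of all 3458 genes with a lower mean in knockout, 45.1% were lowest in that library. All 15 erythroid genes fell, 7 of them tested through wild type alone, with a median log2 change of −3.67, and their summed FPKM was between 27985 and 42555 in wild type and between 2178 and 4815 in knockout. The fall of Pf4 was smaller than this median on the same scale. Itga2b and Gp9 also fell by less, but their wild-type means were only 5.21 and 2.75 FPKM. With 1 FPKM added, neither could have reached that median, so the comparison says nothing about these genes.

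Ratios between members do not depend on how a library is scaled. Since Cd68 rose and Pf4 fell, their ratio had to differ between the genotypes by more than either gene. The ratio of Cd68 to Pf4, in replicate order, was 0.0754, 0.0955 and 0.0479 in wild type against 33.3, 29.6 and 23.2 in knockout. The genotypes did not overlap, and within a genotype the ratios lay close together. The ratio of Pf4 to Gp9 overlapped between the genotypes, at 15.4 to 21.4 in wild type and 8.07 to 53.2 in knockout. The ratio of Mpo to Pf4 was 0.0556 to 0.0902 in wild type and 0.0019 to 0.0138 in knockout, so Mpo was lower against Pf4 in each knockout library. The pairs were chosen after the values of the genes had been seen.

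**Figure D4:**
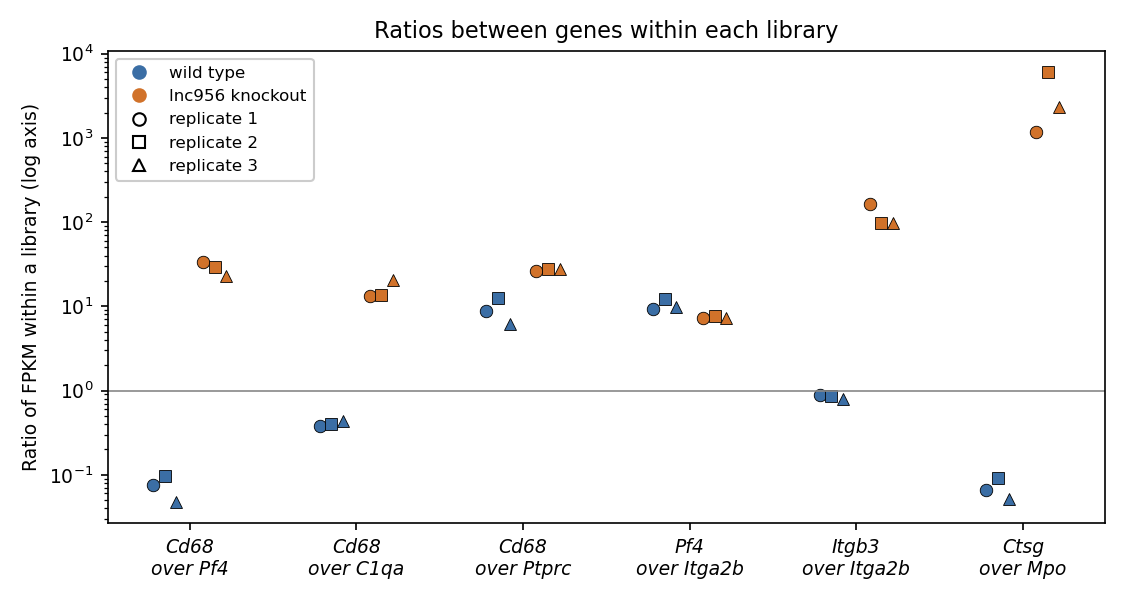
Ratio of the FPKM of paired genes within each library (log axis), wild type in blue and knockout in orange, with marker shape giving the replicate. Cd68 over Pf4 is under 0.1 in wild type and 23.2 to 33.3 in knockout, whereas Pf4 over Itga2b stays between 7.2 and 12.4 in all 6 libraries.

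For each member, some genes outside the set had a profile over the 6 libraries closer to it than any other member had. With 6487 genes searched and only 6 members, this was very likely in advance and says nothing about the members. The distance also depends on the size of a gene's change. Likeness was the Euclidean distance between log2(FPKM + 1) values, each centred on the gene's own mean over the 6 libraries, among all genes tested. The nearest to Cd68 were Serping1, Des and Mustn1, at distances of 0.228, 0.297 and 0.371, against 1.74 for Csf1r. The nearest to Csf1r were Tgm2, Hmox1 and Mvp, at 0.312, 0.497 and 0.525. For Pf4 they were Serp2, Rtkn and Llgl1, at 0.496 to 0.527, for Itga2b Gcg, Dhrs4 and Klhl6, at 0.394 to 0.485, and for Gp9 Nuak2, Bzrap1 and Prkar2b, at 0.0981 to 0.299. For Mpo they were Gm5577, Mfsd2b and Cep41, at 0.471 to 0.536. The distance between Itga2b and Gp9 was 0.787 and that between Itga2b and Mpo 0.936.

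Markers of other cell types that express some of the same genes were measured beside the members. The 7 endothelial genes in the table, of 12, summed to between 103 and 123 FPKM in wild type and between 591 and 679 FPKM in knockout, with 5 of 7 tested genes higher and 2 not past the threshold. Of 10 dendritic cell genes 7 were in the table and 5 were tested, of which 4 rose, 2 of these tested through knockout alone, and Zbtb46 fell, and the class II genes H2-Aa and Cd74 rose from 0.224 ± 0.142 to 13.3 ± 5.64 and from 0.807 ± 0.267 to 33.3 ± 11.7 FPKM. None of the 12 T and B lymphocyte genes listed was analysed here. The part of these cells in the values of the members was not tested.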

How the data were processed

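RNA-seq values of 6 libraries, 3 wild type and 3 lnc956 knockout, were taken from the authors' deposited table of 7101 genes. Its unit is not named and was taken as FPKM computed by the authors, because the values are not whole, the columns differ in sum (170360 to 304435), and Cufflinks 2.1.1 is the only quantifier named beside TopHat2 2.0.8, per the submitters' processing notes. These name the builds mm9 and mm10 without roles. How the table's genes were selected is not stated. Because a few abundant transcripts can lower all others in FPKM, ratios within a library were computed as well.

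Genes that reached 1 FPKM in 3 or more libraries (6487; 614 left out) were tested as log2(FPKM + 1) with limma 3.58.1 in R 4.3.3 (eBayes with trend and robust), two-sided, on genotype alone with Benjamini-Hochberg adjustment over all genes tested at 0.05. An exact test of 3 against 3 cannot go below p = 0.1 and was not used. The FPKM + 1 scale understates the change of low genes. Read depth is not given; from the spacing of low values, depth relative to replicate 1 was 0.93 and 1.06 in wild-type replicates 2 and 3 and 1.08 and 1.03 in knockout replicates 2 and 3, and no counting interval is given.

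The members, lists and tests were chosen with earlier results of these data known. Named genes are the 6 members, in each blood gene list the 3 rising and the 3 falling genes of smallest p, listed genes that missed the threshold where 3 or fewer did, and the 3 nearest profiles of each member. Others were chosen after their values were seen: Csf1, Trem2, Lst1, Cd34, Ptprc, Cd48, Dock2, Gfi1, S100a9, Gp1ba, Gp5, P2ry1, P2rx1, Vwf, Plek, Bin2, Nbeal2, and the markers of other cell types. Some listed genes are not reported here. Of the list symbols, 1 was matched through a synonym. Alternatives were other pseudocounts, filters, rescalings and limma settings, the replicate number as a block, and the omission of single libraries. The fit was tested on simulated data. Python 3.11.15 and matplotlib 3.10.9 were used for descriptions and plots.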

Additional observations from a re-analysis of the deposited data

How the results depend on the processing

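Each member kept its direction under all 14 alternatives, or the 13 that could be run for Mpo, Gp9 and Itga2b, which a filter of 5 FPKM in 3 libraries leaves out. All kept their call except Gp9 with quantile normalization (log2 change −0.74, adjusted p = 0.0526). Leaving out each library in turn gave log2 changes of 5.21 to 5.70 for Cd68, 4.34 to 4.85 for Csf1r, −2.88 to −2.37 for Pf4, −1.84 to −1.38 for Itga2b, −1.59 to −1.05 for Gp9 and −2.57 to −2.03 for Mpo. The size of the change in Mpo depends on the pseudocount, from −4.82 with 0.1 to −0.85 with 5. With the 5 FPKM filter, which tests fewer genes, 4 platelet genes rose and 3 fell, members included, 1 macrophage gene fell and 0 granule genes fell. Over all genes tested, 2803 to 3099 were higher and 3183 to 3195 lower in knockout without 1 library. Of 1072 values recomputed for 79 other listed genes, 1040 kept direction and call, 18 lost the call, 14 gained it and 0 turned. Same-numbered libraries of the genotypes did not deviate together (correlations of −0.06, 0.08 and 0.11 over 6487 genes for replicates 1 to 3), and not every library correlated best with its own number. With the replicate number as a block, 3038 genes were higher and 3192 lower, and the members' calls did not change. The median log2 change of all genes tested was 0.67 after trimmed-mean rescaling and −0.04 with quantile normalization, beside 0.38. The knockout values of Mpo lie near the smallest in the table, so depth in reads limits how far its level there can be read.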
